A study of Mus musculus with 12 samples.

Results

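The β-catenin and H3K27ac chromatin profiles of 5 TALE homeobox genes, Meis1, Meis2, Meis3, Pbx2 and Pbx3, were examined in mouse forelimb buds. The 5 genes were grouped as Meis and Pbx genes of the proximal limb, out of 21884 protein-coding genes of the annotation. Whether each has a role there was not tested. A locus was taken as the gene body plus 200 kb on each side (mm10), and it holds every peak whose summit, the base of highest coverage, lies inside. Wild-type Swiss Albino embryos were exposed at E10.5 to DMSO, the solvent, or to C59, an inhibitor of the enzyme that allows WNT ligands to be secreted, and forelimb buds were dissected 6 h later. Chromatin was precipitated with antibodies to β-catenin or to H3K27ac, with 2 replicates for each antibody and treatment. Each replicate was a pool of forelimb buds, so the profiles average over proximal and distal cells and over all cell types of the bud, and fewer marked cells cannot be told apart from less signal per cell. The study's methods call the replicates biological. There are 8 replicate peak lists and 4 consensus lists, the latter called on both replicates together and restricted to summits that lie where both replicates have a peak.

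MEIS and PBX proteins bind DNA together through their homeodomains and act as partners of HOX proteins. In the limb bud, Meis1 and Meis2 are expressed proximally, where retinoic acid sustains them, and AER-FGF signaling restricts them from the distal mesenchyme. MEIS proteins in turn hold PBX proteins in the nucleus. β-Catenin is the transcriptional effector of canonical WNT signaling and reaches chromatin through TCF/LEF proteins, while H3K27ac marks active promoters and enhancers.

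The lists differ in size by antibody and treatment. The β-catenin lists hold 20203 and 25836 summits in the DMSO replicates, but 330 and 358 after C59, although the fragments behind them cover 2.93 and 3.39 Gb in DMSO and 3.42 and 3.40 Gb after C59. The H3K27ac lists hold 35263 and 37935 summits in DMSO and 37232 and 33180 after C59, from 5.03 and 5.39 Gb and from 5.93 and 5.56 Gb of fragments. All 6 genes examined as forelimb bud markers (Tbx5, Prrx1, Prrx2, Fgf10, Lmx1b and Lhx2) had a DMSO H3K27ac consensus summit less than 1 kb from a TSS. So did 1 of 2 hindlimb genes (Tbx4), 1 of 4 genes of muscle precursors (Lbx1) and 1 of 3 blood genes (Tal1), but none of 4 ectodermal, 4 neural and 3 heart genes. Over all protein-coding genes the share is 52.2%. With 2 replicates a group, the smallest two-sided p of the exact permutation test is 0.33, so that no count below could pass a threshold of 0.05.

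In wild-type control buds, β-catenin was detected at all 5 loci. The consensus list holds 14 summits at Meis1, 12 at Meis2, 5 at Meis3, 2 at Pbx2 and 11 at Pbx3, 44 in all. The replicate lists hold 16 and 20 summits at Meis1, 13 and 15 at Meis2, 7 and 8 at Meis3, 3 in both at Pbx2, and 14 and 18 at Pbx3. Replicate 2, the deeper library, gave the higher number at each locus except Pbx2. After C59, both replicate lists and the consensus list hold 0 summits at each of the 5 loci. The nearest C59 consensus summit to Pbx3 lies 470.5 kb away, on the side of Lmx1b, and the nearest to Meis1 lies 7363 kb away. The difference in the sum over the loci, 58.5 ± 7.78 (SD, n = 2) in DMSO against 0 in both C59 replicates, gave p = 0.33 in the exact permutation test. Such a separation is common in these data, as 79.6% of all protein-coding genes have fewer β-catenin summits in both C59 replicates than in both DMSO replicates, and 98.7% of all DMSO consensus summits lie outside every C59 consensus peak.

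**Figure D1:**
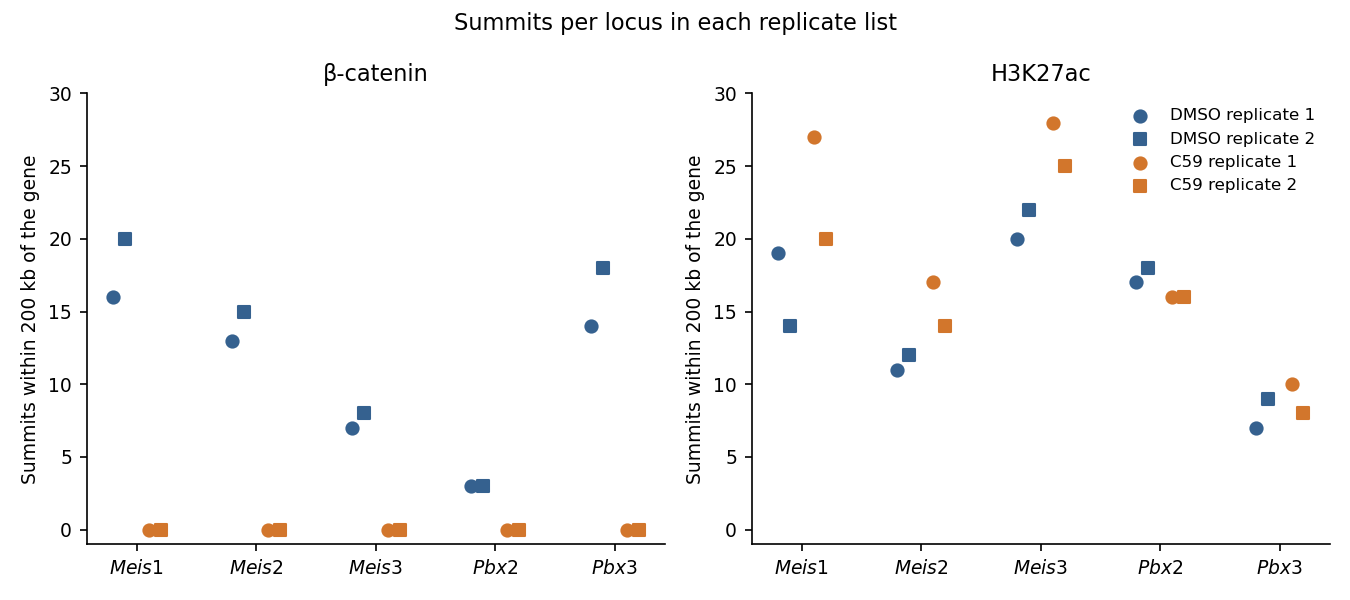
Number of β-catenin (left) and H3K27ac (right) summits within 200 kb of each gene, 1 point for each replicate list (circles replicate 1, squares replicate 2; blue DMSO, orange C59). All β-catenin points lie at 0 after C59, and the H3K27ac points of Meis1, Meis2 and Meis3 lie higher in both C59 replicates.

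The threshold for calling a peak was not the same in all lists. The lowest −log10 p of a listed summit is 3.89 and 3.79 in the DMSO β-catenin replicates and 5.69 and 5.72 in the C59 replicates, which at background coverage corresponds to 8 overlapping fragments in DMSO and 11 after C59. Most summits of the 5 loci exceed both. In replicate 1, 44 of 53 DMSO summits reach the higher of these limits (83.0%, against 85.4% of all summits of that list), and in replicate 2, 57 of 64 do (89.1%, against 79.4%). The number of fragments at the summit, recovered from the fold and p-value, ranged over the 44 consensus summits from 10 to 85 in replicate 1 (median 19), and from 11 to 77 in replicate 2 (median 24). One Meis1 summit of the 44 had no summit within 250 bp in replicate 2. The highest coverage was found at Meis2, with 85 and 77 fragments at the summit 196.6 kb into the gene, and at Pbx3, with 67 and 73 fragments 84.5 kb into the gene.

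**Figure D2:**
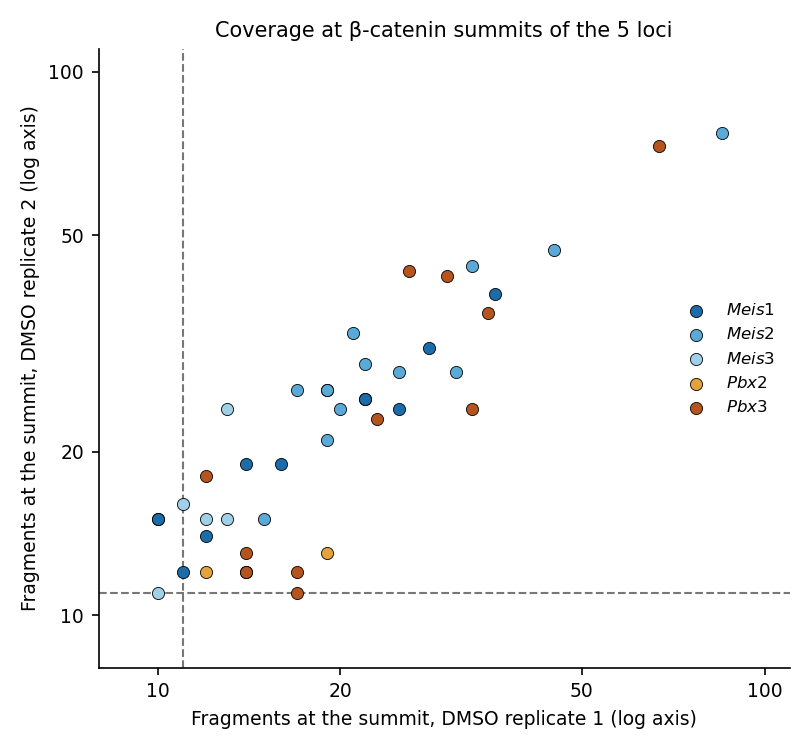
Fragments covering each β-catenin summit of the 5 loci in DMSO replicate 1 (x axis) and replicate 2 (y axis), both axes logarithmic, 1 point for each of the 43 consensus summits matched in both replicates. Dashed lines mark 11 fragments, the coverage needed for a call at background in the C59 libraries; most points lie above it in both replicates.

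The density of β-catenin summits differed among the 5 genes. Per 100 kb of locus, the DMSO consensus list holds 2.60 summits at Meis1, 1.99 at Meis2, 1.83 at Pbx3, 1.22 at Meis3 and 0.49 at Pbx2. The median protein-coding gene has 0.47, which places Meis1 at percentile 98.6, Meis2 at 96.7, Pbx3 at 95.5, Meis3 at 86.5 and Pbx2 at 56.7 of all genes. Neighbouring genes share windows, so these percentiles are a description. Pooled by family, the 3 Meis loci have 2.0 and the 2 Pbx loci 1.29 summits per 100 kb, a ratio of 1.55, with 1.37 and 1.33 in the replicate lists. The ratio depends on single genes: it is 1.09 without Pbx2 and 4.05 without Pbx3. In the order of the genes, Pbx3 stands between Meis2 and Meis3.

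**Figure D3:**
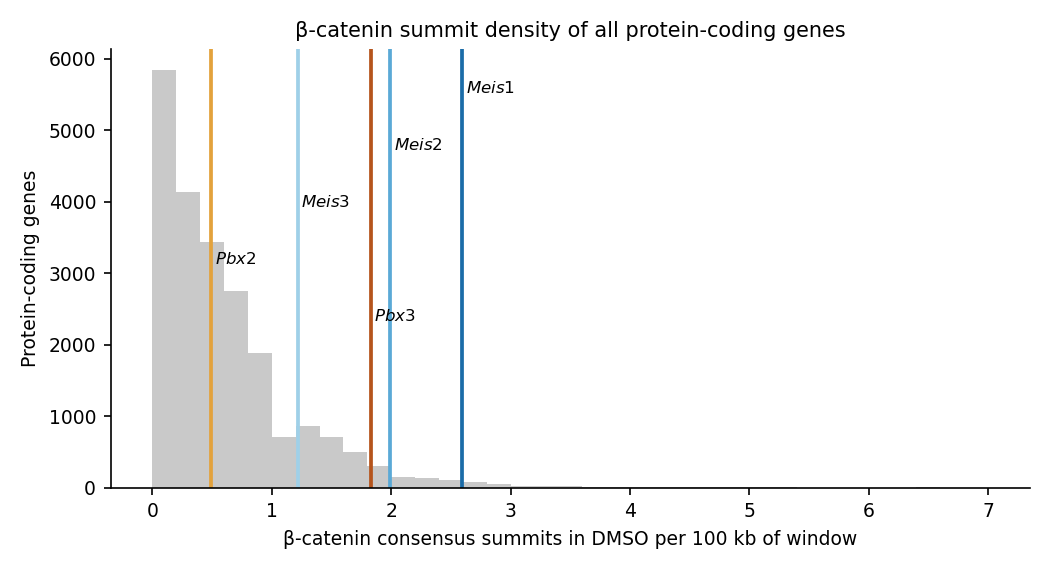
Histogram of the number of DMSO β-catenin consensus summits per 100 kb of locus over 21884 protein-coding genes (grey), with the 5 genes as vertical lines. Meis1, Meis2 and Pbx3 lie in the upper tail, and Pbx2 (0.49) lies close to the median of 0.47.

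The loci differ in how clearly a summit belongs to the gene. No other protein-coding gene lies within the Meis1 window (gene body chr11:18879817-19018985, minus strand), and 1 each lies within the windows of Meis2 (chr2:115863064-116065839, minus strand; BC052040) and Pbx3 (chr2:34171457-34373142, minus strand; Mapkap1). In contrast, Meis3 (chr7:16175090-16186504, plus strand) has 12 coding neighbours and Pbx2 (chr17:34591266-34597400, plus strand) has 15. Accordingly, the member is the gene of the nearest coding TSS for 14 of 14 summits at Meis1 and 9 of 12 at Meis2, but for 5 of 11 at Pbx3, 1 of 2 at Pbx2 and 1 of 5 at Meis3. Of all 44 summits, 16 lie in introns of the 5 genes, 1 in a Meis1 UTR, 9 in other coding genes and 18 between genes.

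At Meis1, β-catenin was spread over the gene and the sequence 3′ to it, and none of the 14 consensus summits lies less than 1 kb from a Meis1 TSS. The strongest is 260.2 kb downstream of the 5′ end of the gene (chr11:18758772), with a fold of 9.87 over the coverage expected in the same library, and folds of 8.70 and 7.99 in the replicates. It is followed by an intronic summit at 102.1 kb (fold 7.63; 8.69 and 6.81 in the replicates) and by the single upstream summit, 38.5 kb before the gene (fold 7.53; 6.72 and 8.14). The remaining 11 have folds from 4.24 to 7.42, and 3 of them cluster 304.4 to 306.4 kb from the 5′ end. The list of DMSO replicate 2 alone holds a summit 41 bp from a Meis1 TSS (chr11:19018673, fold 4.34).

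At Meis2, the strongest summit lies 60.1 kb upstream between genes (chr2:116125939; fold 14.6, with 14.3 and 12.7 in the replicates). The second is intronic, 196.6 kb into the gene near its 3′ end (chr2:115869288; fold 14.2; 13.2 and 13.1), and 421 bp from the start of an annotated Meis2 transcript that is not classed as coding. The third (fold 10.3; 9.26 and 10.9) is 398.1 kb from the 5′ end, inside the neighbouring BC052040. Of the 12 summits, 5 lie between 189.8 and 206.4 kb, around the 3′ end of Meis2.

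Meis3 had its strongest summit at its own promoter, 857 bp upstream of the TSS (chr7:16174233), with a fold of 8.35 in the consensus list and of 5.45 and 8.60 in the replicates. The other 4 summits have folds from 3.11 to 6.39 and are nearest to the TSS of Bicra (2 summits), Inafm1 and Bbc3.

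Pbx3 carried the strongest β-catenin summit of the 5 loci (chr2:34288691; fold 15.8, with 15.8 and 13.3 in the replicates). It is intronic, 84.5 kb into the gene and 161 bp from the start of a noncoding Pbx3 transcript. The next lies 197.4 kb upstream within Mapkap1 (fold 11.4; 8.91 and 10.8), and the third 333.9 kb from the 5′ end, beyond the 3′ end of the gene (fold 10.3; 8.90 and 8.21). By contrast, Pbx2 had 2 weak summits. The first is in an intron near the 5′ end, 388 bp from a Pbx2 TSS (chr17:34591875; fold 5.51; 6.42 and 3.98 in the replicates). The other is 4.3 kb upstream within Notch4 (fold 4.48; 4.19 and 3.60). Over all genes, 9.02% have a DMSO β-catenin consensus summit less than 1 kb from a TSS, while 4 of the 5 do here (Meis2 and Pbx3 at internal noncoding starts, Meis3 and Pbx2 at the coding promoter). Any annotated start of a gene counts, and the 5 genes have from 5 (Pbx2) to 16 (Meis2). The share among genes with as many starts was not computed. The median fold of the 44 summits is 6.28, and that of all DMSO summits is 6.76.

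**Figure D4:**
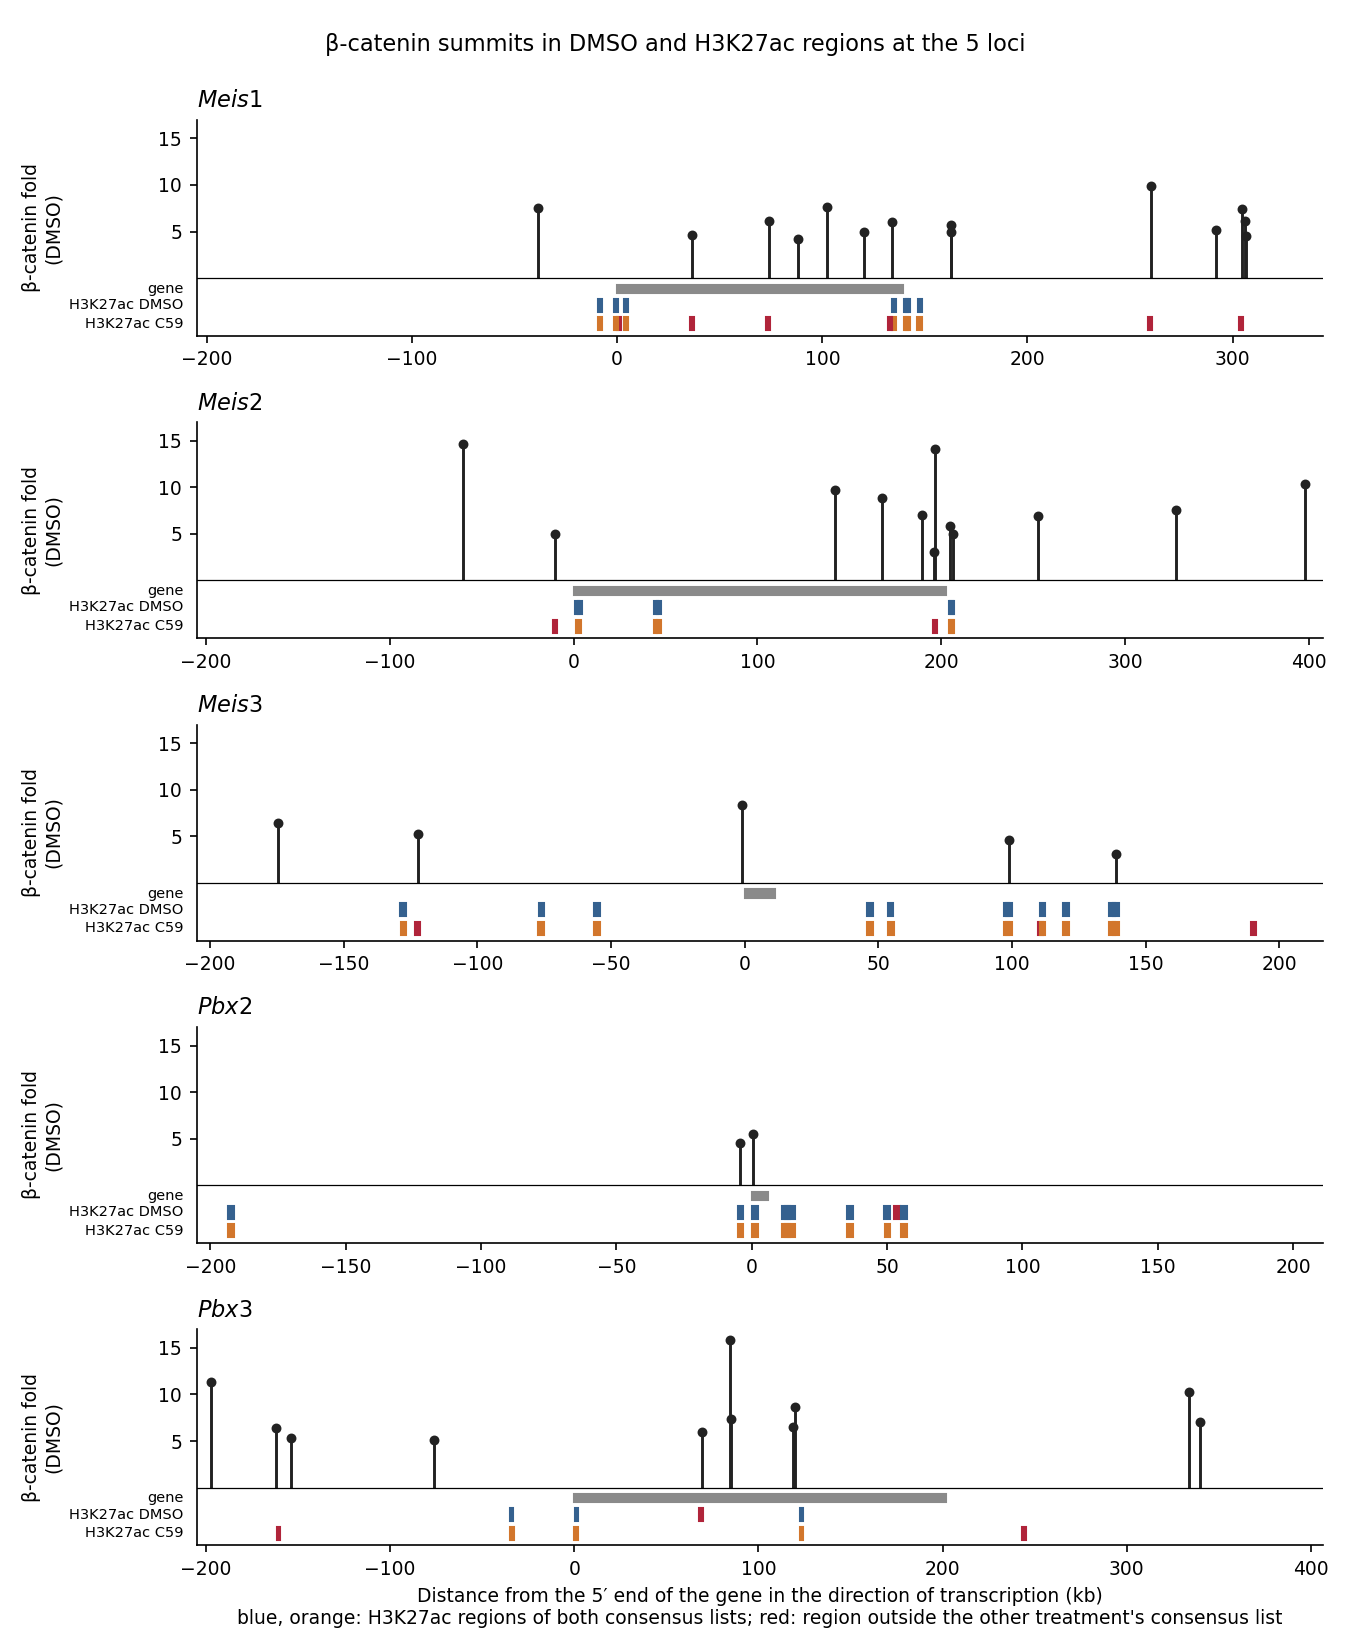
DMSO β-catenin consensus summits (black, height gives the fold) and H3K27ac consensus regions in DMSO (blue) and C59 (orange) along each locus, by distance from the 5′ end in the direction of transcription; grey bars are the genes, and regions under 2 kb are drawn 2 kb wide. Red marks H3K27ac regions without overlap in the other treatment's consensus list. Those that contain a β-catenin summit are chr11:18758505-18759642 at Meis1 and both at Meis2. Other red regions can appear under a summit through the drawn width.

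As β-catenin reaches DNA through TCF/LEF proteins, the 200 bp around each summit were searched on both strands for their core, ATCAAAG or TTCAAAG. It is present at 14 of the 44 summits (31.8%, 95% Wilson interval 20 to 46.6%), against 28.6% of all DMSO consensus summits. By locus, the core is found at 2 of 14 summits of Meis1, 5 of 12 of Meis2, 2 of 5 of Meis3, 0 of 2 of Pbx2 and 5 of 11 of Pbx3. The intervals cover counting error only, and the interval of each locus contains the share of the full list. To show how the core sits at these summits, sequences of up to 3 core-bearing summits per locus, chosen among those of highest fold, are given from the RefSeq copy of mm10. They are read 5′ to 3′ on the plus strand, 100 bases each including the summit base, with the core in capitals (CTTTGAT or CTTTGAA where it lies on the minus strand). Not every sequence so chosen is given, and a Meis1 and a Meis3 sequence that run into a UTR are left out.

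Meis2, 60.1 kb upstream, chr2:116125939-116126038: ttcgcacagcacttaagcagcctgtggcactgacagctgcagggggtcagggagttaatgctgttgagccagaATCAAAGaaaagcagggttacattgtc
Meis2, in BC052040, chr2:115667702-115667801: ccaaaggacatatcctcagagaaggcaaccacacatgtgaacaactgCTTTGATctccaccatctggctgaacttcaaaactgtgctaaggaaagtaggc
Meis2, in BC052040, chr2:115738063-115738162: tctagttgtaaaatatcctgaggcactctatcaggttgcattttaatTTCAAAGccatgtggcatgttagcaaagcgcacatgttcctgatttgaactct
Pbx3, 3′ of the gene, chr2:34039157-34039256: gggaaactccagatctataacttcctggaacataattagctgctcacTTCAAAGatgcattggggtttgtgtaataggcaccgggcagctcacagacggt
Pbx3, intronic, chr2:34287706-34287805: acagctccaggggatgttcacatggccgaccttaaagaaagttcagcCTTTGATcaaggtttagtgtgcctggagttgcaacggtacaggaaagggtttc
Meis3, 122.1 kb upstream, chr7:16052879-16052978: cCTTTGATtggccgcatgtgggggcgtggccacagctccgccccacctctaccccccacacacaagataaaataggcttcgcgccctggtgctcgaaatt
Meis1, 3′ of the gene, chr11:18727072-18727171: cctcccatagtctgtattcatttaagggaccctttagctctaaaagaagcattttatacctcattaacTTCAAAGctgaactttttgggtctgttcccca

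The core lies 3 and 11 bp from the summit at the Meis2 sites in BC052040 (folds 10.3 and 7.62). At Pbx3 it lies 11 bp away at the site 3′ of the gene (fold 10.3) and 7 bp away at the intronic site (fold 7.39). It is further off in the other sequences given, at 76 bp for the strongest Meis2 summit, 95 bp for Meis3 and 71 bp for Meis1. The strongest summits of Meis1, Meis3, Pbx2 and Pbx3 have no TCF/LEF core in the 200 bp. The sequences of these 4 follow, with capitals marking the core of MEIS proteins themselves, TGACAG on either strand, where present.

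Meis1, 260.2 kb from the 5′ end, chr11:18758772-18758871: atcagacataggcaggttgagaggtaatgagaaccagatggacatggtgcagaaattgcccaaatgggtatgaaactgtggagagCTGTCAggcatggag
Meis3, promoter, chr7:16174134-16174233: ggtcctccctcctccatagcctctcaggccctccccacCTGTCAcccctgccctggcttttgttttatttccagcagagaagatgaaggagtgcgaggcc
Pbx2, intron near the 5′ end, chr17:34591825-34591924: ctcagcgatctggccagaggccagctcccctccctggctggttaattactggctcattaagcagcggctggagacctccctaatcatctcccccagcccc
Pbx3, intronic, chr2:34288641-34288740: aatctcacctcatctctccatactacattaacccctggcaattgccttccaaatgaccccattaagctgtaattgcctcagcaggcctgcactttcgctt

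The MEIS core was found at 10 of 31 summits of the Meis loci (32.3%, interval 18.6 to 49.9%) and at 1 of 13 of the Pbx loci (7.69%, 1.37 to 33.3%), against 18.4% of all DMSO summits. At Meis1 alone, 6 of 14 summits hold it. The share at the Meis loci is 38.9% in the list of replicate 1 and 23.3% in that of replicate 2. The 8-base core TGATTGAT of PBX proteins was at 0 of the 44 summits, and at 1.97% of all. In the list of replicate 2 it was at 3 of 43 summits of the Meis loci (6.98%, against 1.76% of that list). The median GC content of the 200 bp is 46% at the 5 loci and 45.5% over all DMSO summits.

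In contrast to β-catenin, H3K27ac was called at all 5 loci after C59, and H3K27ac summits around each Meis gene were more numerous in both C59 replicates than in both DMSO replicates. Meis1 had 19 and 14 summits in the DMSO replicates and 27 and 20 after C59. Meis2 had 11 and 12 in DMSO and 17 and 14 after C59, and Meis3 20 and 22 in DMSO and 28 and 25 after C59. All 3 genes have both C59 values above both DMSO values, a pattern seen at 5.12% of all protein-coding genes. At Pbx3 the groups overlap (7 and 9 in DMSO, 10 and 8 after C59). At Pbx2 both C59 values lie below both DMSO values (17 and 18 in DMSO, 16 in both after C59), as at 15.7% of all genes. Summed by family, the Meis loci had 49.0 ± 1.41 summits in DMSO and 65.5 ± 9.19 after C59 (SD, n = 2 each, p = 0.33, exact permutation test, two-sided, the smallest this design can give). Without C59 replicate 1, the difference of 16.5 becomes 10, and among summits with a fold of at least 5 it is 2.5, with 0 at Meis2. The Pbx loci had 25.5 ± 2.12 and 25.0 ± 1.41 (p = 1, exact permutation test). The sequence covered by H3K27ac peaks at the Meis loci was 19.6 and 19.2 kb in DMSO and 26.8 and 21.2 kb after C59. At Pbx3 it was 3.36 and 3.46 kb in DMSO and 4.09 and 3.85 kb after C59. At Pbx2 it was 7.44 and 7.96 kb in DMSO and 7.09 and 6.63 kb after C59. The share of all genes separated in covered sequence was not computed. Whether the change differs between the families was not tested.

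The C59 libraries for H3K27ac are the deeper ones, whereas their lists are not the longer ones throughout. Per 10000 summits of each list, the Meis loci account for 14.2 and 12.7 summits in DMSO and 19.3 and 17.8 after C59, and each of Meis1, Meis2 and Meis3 keeps both C59 values above both DMSO values (15.6% of all genes do on this scale, and Pbx3 does as well). The Pbx2 groups then overlap. For Meis3 the summits belong to its neighbourhood: in none of the 4 replicate lists is Meis3 the gene of the nearest coding TSS for any H3K27ac summit. At Meis1 and Meis2 all H3K27ac summits are nearest to the member.

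H3K27ac regions were then compared between the consensus lists. The DMSO consensus list has 24 H3K27ac regions at the Meis loci, and 24 of these overlap a C59 consensus region, while 12.9% of all DMSO regions have no such overlap. The C59 list has 34 regions at these loci, and 11 of them (32.4%) have no DMSO consensus counterpart, against 10.7% of all C59 regions. At the Pbx loci, 2 of 14 DMSO regions and 2 of 14 C59 regions had no counterpart. The 11 comprise 6 regions at Meis1, 2 at Meis2 and 3 at Meis3. Of these, 4 overlap no peak in either DMSO replicate list (3 at Meis1 and 1 at Meis3), and 7 were listed in 1 DMSO replicate, with folds from 1.90 to 3.56. Among all C59 regions, 3.43% have no peak in either DMSO replicate, and among all DMSO regions 4.69% have none in either C59 replicate.

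At Meis1, 5 of the 6 regions called after C59 only lie within 1 kb of a β-catenin consensus summit of the control buds. The region chr11:18758505-18759642 spans the strongest Meis1 β-catenin summit. It has H3K27ac folds of 4.54 and 5.03 in the C59 replicates and no peak in either DMSO replicate. The region chr11:18885880-18886140, at the 3′ end of the gene, has folds of 5.03 and 3.92 after C59 and none in DMSO, and lies 702 bp from a β-catenin summit of fold 6.03. The region chr11:18982588-18982869 has folds of 3.21 and 4.68 after C59 and none in DMSO, with a β-catenin summit 201 bp away (fold 4.66). Another region within the gene, chr11:18945196-18945684, lies 180 bp from a β-catenin summit (fold 6.17) and was also listed in DMSO replicate 1 (2.98, against 4.31 and 3.51 after C59). The distal region chr11:18714654-18715195 lies 57 bp from a summit of fold 7.42, and its fold was 3.52 in DMSO replicate 1, against 3.55 and 3.17 after C59. The remaining region lies 387 bp from a Meis1 TSS, with folds of 1.96 and 2.11 after C59 and 1.90 in DMSO replicate 2.

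At Meis2, both regions called after C59 only span a control β-catenin summit. The region chr2:115868665-115870096 covers the second strongest summit of the locus. Its H3K27ac fold was 3.87 and 3.08 after C59, and 2.94 in DMSO replicate 2. The other, chr2:116075538-116076412, is 9.85 kb upstream of Meis2 and covers a β-catenin summit of fold 4.97. Its fold was 3.68 and 2.85 after C59 and 3.56 in DMSO replicate 2, so that in this region the difference lies in whether DMSO replicate 1 passed the threshold. At Meis3, 1 of 3 such regions (chr7:16052549-16052823) lies 155 bp from a β-catenin summit. The region of Meis3 absent in both DMSO replicates (chr7:16285653-16285934) is 211 bp from the TSS of Ccdc9, and no β-catenin summit is near it.

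Together, 8 of the 11 regions called after C59 only at the Meis loci lie within 1 kb of a DMSO β-catenin summit (72.7%, 95% Wilson interval 43.4 to 90.3%). Over the whole list the share is 29.2% for regions called after C59 only and 25% for regions shared with DMSO, and it is 6 of 23 for the shared regions at the Meis loci. At the Pbx loci, 0 of 2 regions called after C59 only lie within 1 kb of a β-catenin summit. The Pbx3 region chr2:34533503-34533918 is just outside this limit, 1256 bp from a summit of fold 6.41. The comparison of these shares was made after the positions had been seen, and the loci have a high density of β-catenin summits to begin with. It is therefore given as a description without a test. Conversely, 5 of the 44 control β-catenin summits (11.4%) lie inside an H3K27ac peak of the C59 but not of the DMSO consensus list, 1 at Meis1 and 4 at Meis2, against 3.67% of all DMSO β-catenin summits, and 0 of the 44 lie inside one of DMSO only. These summits are not separate new regions. At Meis2, chr2:115869288 and chr2:115869877 share a region. The summit chr2:115860874 lies in a region called under both treatments, which ends at 115860736 in DMSO and at 115860990 after C59.

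**Figure D5:**
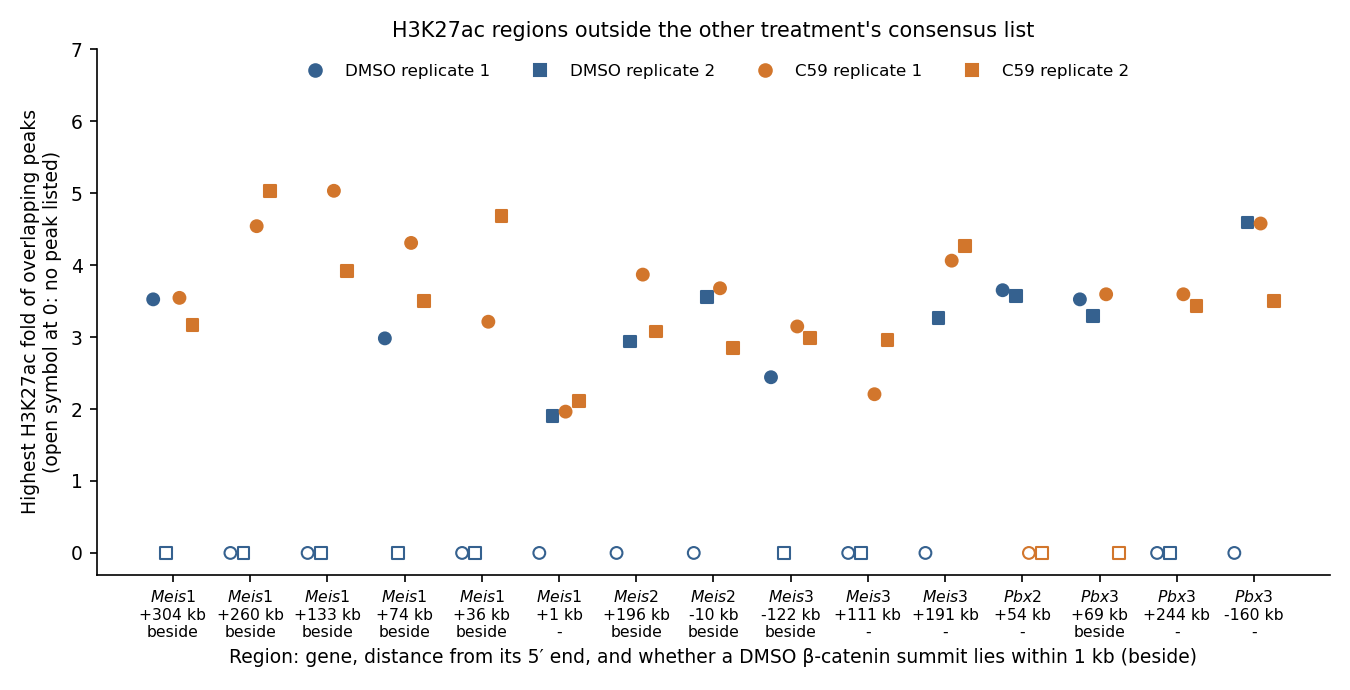
Highest H3K27ac fold in each replicate list for the 15 regions of the 5 loci that have no counterpart in the other treatment's consensus list (blue DMSO, orange C59; circles replicate 1, squares replicate 2; open symbols at 0 mean that no peak was listed). Labels give the distance from the 5′ end, and "beside" marks regions with a DMSO β-catenin summit within 1 kb, 8 of the 11 at the Meis loci.

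At the Pbx loci, 4 regions were in the consensus list of 1 treatment. A DMSO region absent from both C59 replicates (chr17:34644875-34645111, folds 3.65 and 3.57) lies in the Pbx2 window but 145 bp from the TSS of Fkbpl. At Pbx3, a region 244.3 kb from the 5′ end and beyond the gene (chr2:34128748-34129197) was listed in both C59 replicates (folds 3.59 and 3.43) and in neither DMSO replicate. A region within Pbx3, chr2:34303983-34304424, was in the DMSO consensus list only, though it was also listed in C59 replicate 1 (3.59, against 3.52 and 3.29 in DMSO), and lies 118 bp from a control β-catenin summit of fold 5.92. The last, chr2:34533503-34533918 in the C59 list, was also listed in DMSO replicate 2 (4.59, against 4.58 and 3.51 after C59).

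In control buds, β-catenin at these loci was mostly found outside H3K27ac peaks. Of the 44 summits, 3 (6.82%, interval 2.35 to 18.2%) lie inside a DMSO H3K27ac consensus peak, against 22.2% of all DMSO β-catenin summits, and these are 2 at Meis3 and 1 at Pbx2, the gene-dense loci. None of the 14 summits of Meis1, 12 of Meis2 and 11 of Pbx3 does, including the strongest of each. With the peaks extended by 1 kb, 8 of 44 lie inside (18.2%, against 34.1% of all).

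At the promoters, H3K27ac was found in every replicate list for 4 of the 5 genes and in none for Meis3, whose promoter carried β-catenin in DMSO. Among all genes, 52.2% have a DMSO H3K27ac consensus summit less than 1 kb from a TSS. The fold at the promoter summit of highest −log10 p was 5.88 and 5.56 in DMSO and 5.37 and 4.70 after C59 at Meis1. At Meis2 it was 3.55 and 3.81 in DMSO and 3.34 and 3.48 after C59, and at Pbx2 8.40 and 8.80 in DMSO and 8.19 and 8.22 after C59. At Pbx3 it was 8.89 and 8.70 in DMSO and 9.48 and 9.44 after C59. At these summits the groups do not overlap for the 4 genes, with the fold lower after C59 at Meis1, Meis2 and Pbx2 and higher at Pbx3 (p = 0.33 each, exact permutation test). With the promoter summit of highest fold instead, the Meis2 groups overlap (4.35 and 3.81 in DMSO, 3.87 and 3.48 after C59). Such separations are frequent, as the promoter fold is lower in both C59 replicates for 19.6% and higher for 21.1% of the 11076 genes that could be compared.

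The fold is relative to the coverage expected around the summit, and at Meis2 and Pbx3 the direction of the mean difference depends on this reference. Taken over the background of the whole library, promoter coverage was 116.0 and 103.7 times background in DMSO and 109.4 and 85.4 times after C59 at Meis1. It was 48.3 and 52.7 times in DMSO and 55.2 and 51.8 times after C59 at Meis2, and 71.0 and 78.0 times in DMSO and 75.0 and 67.6 times after C59 at Pbx3. The groups of these 3 genes overlap on this scale. The Pbx2 groups do not overlap, with 50.6 and 51.3 times background in DMSO and 41.0 and 37.6 times after C59 (p = 0.33, exact permutation test). The background itself was 2.69 and 2.88 fragments in DMSO and 3.17 and 2.98 after C59. The share of all genes separated on this scale was not computed, so the Pbx2 difference cannot be set against it.

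Other genes of the family and of retinoic acid signaling were examined in the same way. Of 7 further TALE genes, 6 had H3K27ac at the promoter in DMSO and the same number after C59, and the Mkx promoter lacked it in both consensus lists. Their loci hold 1 to 10 DMSO β-catenin consensus summits (median 3), against 14, 12, 5, 2 and 11 at Meis1, Meis2, Meis3, Pbx2 and Pbx3. Windows differ in length, and per 100 kb these loci hold 0.21 to 1.52 summits. The values of the 5 genes, in the same order, are 2.60, 1.99, 1.22, 0.49 and 1.83. Among the 7, H3K27ac summits were more numerous in both C59 replicates for 1 gene, Pknox2 (18 and 19 in DMSO, 24 and 21 after C59). They were less numerous for 1, Mkx (4 in both DMSO replicates, 3 in both after C59). Over all protein-coding genes, the shares are 5.12% for more and 15.7% for fewer. Of 6 genes for the synthesis, breakdown and reception of retinoic acid, 5 had H3K27ac at the promoter under both treatments, all but Aldh1a2, the main enzyme of its synthesis. Their loci hold 2 to 17 β-catenin summits in DMSO (median 7.5), with the highest number at Rara, which encodes a retinoic acid receptor. For 0 of the 6 were the H3K27ac groups separate in either direction. Among the 6 forelimb bud genes, H3K27ac summits were more numerous in both C59 replicates for 2, against 5.12% of all genes. These are Tbx5 (22 and 24 in DMSO, 25 in both after C59) and Prrx2 (48 and 49 in DMSO, 51 and 50 after C59). Whether the share in any of these short lists differs from that of all genes was not tested.

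The genes with the most similar counts over the 8 replicate lists were identified by Euclidean distance of log2(count + 1), leaving out genes that share the window. For Meis1 they were Bbs9 (distance 0.45), Arid5b (0.58) and Cdkal1 (0.62). For Meis2 they were Gli3 (0.30), which encodes a transcriptional mediator of hedgehog signaling, Stox2 (0.41) and Pecr (0.42). For Meis3 they were Tceanc2 (0.26), Tlx1 (0.27) and Prodh (0.27), and for Pbx3 Fstl4 (0.27), Chn2 (0.33) and Mab21l2 (0.41). The 3 nearest to Pbx2 (Ccdc103, Fam187a and Gfap, 0.08 each) have the same counts as each other in all 8 lists.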

How the data were processed

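ChIP-seq peak lists of 8 of the 12 samples were used, with the 4 consensus lists, and the 4 input samples were not analysed here. Reads were trimmed by the authors with cutadapt (4.1 in the submitters' processing notes, another version in the study's methods), aligned to mm10 (Bowtie2 2.4.5) and filtered on mapping quality, and MACS2 2.2.7.1 was run without input to call summits. The deposited fold is the summit's coverage over that expected in the same library, and the deposited −log10 p and −log10 q values come from the same comparison. For consensus lists the authors removed duplicates (Picard 2.27.4), sampled the replicates to equal depth and called both together.

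Genes and TSSs were taken from GENCODE vM21, and sequences from RefSeq (GRCm38). The sequence of 1 Pbx3 summit is not reported here. Coverage at a summit was solved from fold and −log10 p to within 0.01. Groups of 2 replicates were compared by two-sided exact permutation tests, and shares have 95% Wilson intervals, which cover counting error only. Named were the 5 genes, the 3 strongest β-catenin summits per locus, promoter H3K27ac, regions called in 1 treatment, and the 3 genes most alike. Members and lists were chosen with earlier results of these data known. Regions called after C59 only, their distance to β-catenin, the scaling per 10000 summits and the assignment of H3K27ac summits to the nearest TSS were added after seeing the data. Windows, thresholds, overlaps, motif widths and single replicates were varied. Scripts were tested on simulated data and used Python 3.11.15, pandas 2.3.3, NumPy 2.4.6, SciPy 1.17.1 and matplotlib 3.10.9.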

Additional observations from a re-analysis of the deposited data

How the results depend on the processing

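With windows of 100 and 500 kb, 29 and 96 DMSO β-catenin summits were counted in place of 44, and at 500 kb 1 of them was still called after C59. The Meis to Pbx ratio of β-catenin density (1.55) was 1.67 and 1.87 in these windows, 1.5 at a −log10 q of at least 5, 1.19 at a fold of at least 5, and 2.60 for summits nearest to a member's TSS. It was 1.30 without Meis1, 1.77 without Meis3, 1.09 without Pbx2 and 4.05 without Pbx3, and 1.33 to 1.37 with 1 replicate left out. The C59 minus DMSO difference in H3K27ac summits at the Pbx loci (−0.5) ranged from −2 to 1 with 1 library left out, changing sign without DMSO replicate 2 (1) or C59 replicate 2 (0.5), and was 0.15 per 10000 listed summits. That of Pbx3 (1) was −1.5 under both stricter thresholds and −1 for summits nearest to its TSS. At the Meis loci the difference (16.5) was 10 to 23 with 1 library left out, the lowest without C59 replicate 1, and it was 9 within 100 kb, 11 at a −log10 q of at least 5 and 2.5 at a fold of at least 5. At that fold it was 1 over all 5 loci (16 otherwise), 1 at Meis1 (7 otherwise) and 0 at Meis2 (4 otherwise). Of the 11 regions called after C59 only, 4 had no peak in either DMSO replicate. Of the 8 beside β-catenin, 3 contained the summit, and 3 had no peak in either DMSO replicate. A TCF/LEF core was in 8 windows of 100 bp in place of 14 of 200 bp, and 8 β-catenin summits lay in H3K27ac peaks extended by 1 kb in place of 3. The causes of these shifts were not tested. Of 132 values computed under alternatives, 100 kept their direction or stayed within the set limits for a count or share, though the H3K27ac differences among them could shrink as above. The 100 include the H3K27ac differences with the replicate number as a block, described below, which equal the main values by construction.

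With the replicate number as a block (replicate block), the H3K27ac difference was 16 over all loci and 16.5 at the Meis loci. The mean of paired differences equals the difference of means by construction, so these values say nothing about the pairing. On average, 14.5 C59 regions at the Meis loci had no DMSO counterpart of the same number (17 of 45 and 12 of 42). In the other direction, 4 of 33 and 4 of 34 DMSO regions at the Meis loci had no C59 counterpart of the same number. At the Pbx loci, 6 of 20 and 2 of 16 C59 regions had no DMSO counterpart of the same number. Of the DMSO regions there, 2 of 15 and 4 of 17 had no C59 counterpart. The shares over all regions were not computed for this pairing. The labels do not say that equal numbers share a litter or day, and 2 pairs are too few to tell from the data.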
